A study of Mus musculus with 12 samples.

Results

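After 3 days of angiotensin II infusion the mouse vessel was compared with the untreated vessel at day 0, on 3 arrays per group, which are 6 of the 12 arrays of the series (the others are days 1 and 7). The mice were C57BL/6 males aged 8 to 10 weeks. The infused mice carried an osmotic pump that delivered 1500 ng angiotensin II per kg per min in Ringer's solution, described as saline with acetic acid, and the day 0 mice received no treatment. The labels and series text used here give no vehicle or sham pump. The peptide, its vehicle and the surgery cannot be told apart in any value below. Which vessel was taken, and how much of the fat around it, is not given either. The 3 arrays of a group are described as biological replicates without naming the animals. The p-values therefore set each change against the spread between samples within groups, pooled over all 12 arrays, and not between named animals.

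Angiotensin II is a peptide hormone made from angiotensinogen by renin and the converting enzyme. Through the type 1 receptor on smooth muscle cells it raises cytosolic calcium and constricts the artery, while nitric oxide from the endothelium relaxes it through cyclic GMP. Sustained infusion raises blood pressure and is known to draw macrophages into the outer layer of the artery, to add collagen and other matrix, and to shift smooth muscle cells from a contractile state towards one of growth and secretion. Day 3 lies between the early stress of the infusion and the later remodelling of the wall.

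Each gene's value is a log2 signal as deposited, taken from 1 transcript cluster (a group of probes on the array that together measure a gene). Of 30702 genes, 22065 passed a filter on dim signals and were tested in limma, with Benjamini-Hochberg adjustment over all of them. A gene rose or fell here when its adjusted p was under 0.05, and ± after a change is the standard error of the limma estimate with n = 3 arrays per group. At day 3, 1018 of the 22065 genes rose (4.61%) and 1575 fell (7.14%), so 11.8% were called. Of these, 352 rose and 576 fell by 2-fold or more. The counts called in each list below stand beside those shares of all tested genes. The 3 day 3 arrays lay above all 3 day 0 arrays for 23.3% of the tested genes and below them for 21.4%, and for 1018 of the risers and 1574 of the fallers. The median change of all tested genes was 0.08 log2 units. With 3 arrays per group, the number of arrays limits the precision. Leaving out day 0 replicate 1, 2 or 3 left 478, 412 or 322 risers and 794, 625 or 539 fallers, and leaving out day 3 replicate 1, 2 or 3 left 852, 392 or 285 risers and 1043, 646 or 417 fallers. Of 167 called genes chosen by rule for naming below, between 81 (without day 3 replicate 3) and 134 (without day 3 replicate 1) stayed called when an array of these groups was left out. The direction changed in 0, but leaving out 1 array cannot turn it where the groups do not overlap, as in nearly all called genes.

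The day 3 arrays also differed from the day 0 arrays in signs of array quality. The gap between the medians of positive and negative control features was 2.59 ± 0.05 log2 units at day 0 and 1.98 ± 0.14 at day 3 (SD, n = 3), and the poly-A spike controls averaged 5.36 ± 0.08 and 4.67 ± 0.21. In both measures every day 3 array lay below every day 0 array (exact two-sided permutation p = 0.1, the smallest that 3 against 3 allows). The median change was 0.17 among genes of mean signal 5 to 6 and -0.15 among those of 8 to 10. Centring each array on its median lowered every change by 0.18. Rises made up 39.3% of the calls as deposited, 29.8% after quantile normalization and 23.0% after centring. Pearson r over all genes was 0.991 to 0.992 between day 0 arrays, 0.984 to 0.993 between day 3 arrays and 0.963 to 0.980 across the 2 groups.

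Markers of smooth muscle, the main cell of an arterial wall, were bright at day 0. The 10 tested averaged 14.17 ± 0.19 at day 0 and 12.17 ± 0.64 at day 3 (SD, n = 3 arrays), and Acta2, the actin of smooth muscle, stood at the ceiling of the deposited values (19.93) on 5 of the 6 arrays. Markers of fat were bright as well. The 11 white adipocyte markers averaged 11.03 ± 0.01 at day 0 and 10.51 ± 0.29 at day 3, and the 11 brown adipocyte markers 8.30 ± 0.13 and 7.50 ± 0.16, with every day 3 array below every day 0 array in both. With the mean of the fat markers of each array as a covariate, 21 genes rose and 34 fell. Taking the control-feature difference as covariate instead, 272 rose and 192 fell. Of the 167 named genes, 23 stayed called with the first and 60 with the second, all in the same direction. Every day 3 array lay below every day 0 array in the control-feature difference and in both fat marker means. Where a call is lost with a covariate, the part of the covariate and that of the day therefore cannot be told apart. The part of fat content and of array quality in the changes below was not tested further. In bulk tissue, fewer cells of a type and less RNA per cell cannot be told apart.

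**Figure D1:**
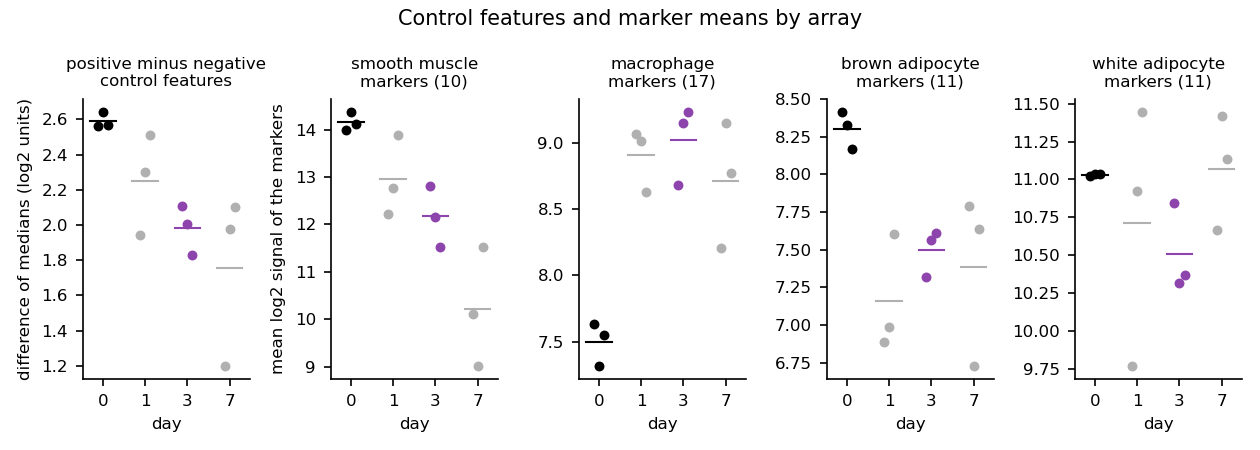
Each point is 1 array, placed by day of infusion, and the line is the mean of 3 arrays; the first panel gives the difference between the medians of positive and negative control features and the others the mean log2 signal of a marker list (genes tested in brackets). At day 3 (purple) the control-feature difference (1.98), smooth muscle markers (12.17) and brown adipocyte markers (7.50) lie below day 0 (black; 2.59, 14.17 and 8.30), and macrophage markers (9.02) lie above it (7.50).

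**Figure D2:**
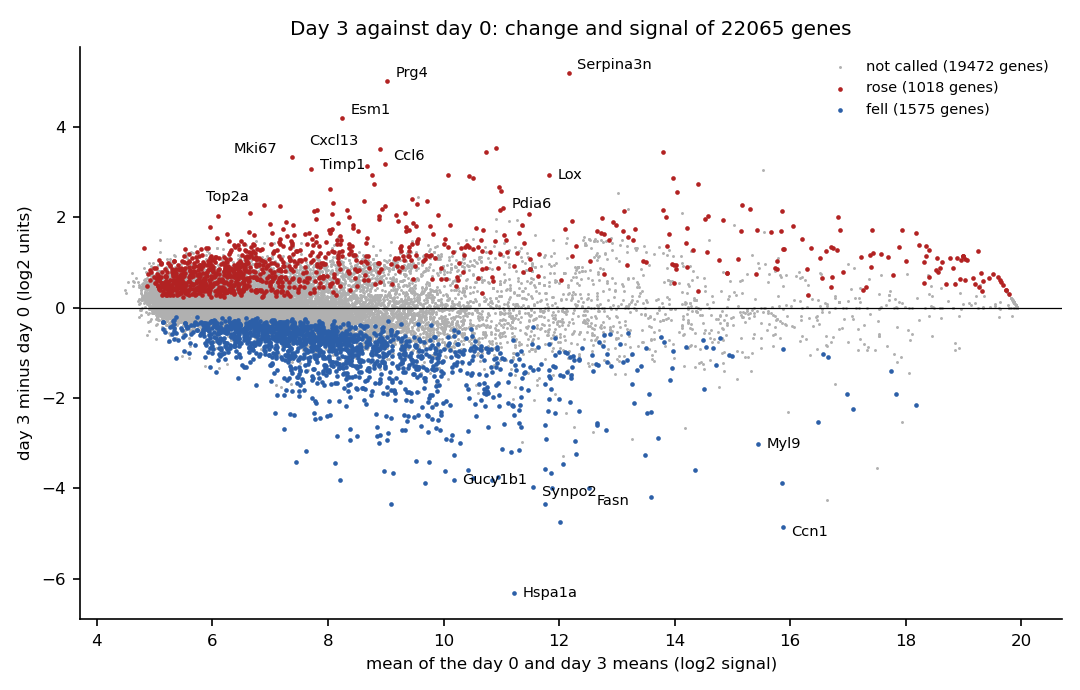
Each point is 1 of the 22065 tested genes, with the mean of its day 0 and day 3 means on the x axis and the log2 change from day 0 to day 3 on the y axis. Genes that rose (1018) are red and genes that fell (1575) are blue; Serpina3n stands highest at 5.20 and Hspa1a lowest at -6.32, and the points of the brightest genes end at the ceiling of the scale (19.93).

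The contractile machinery of smooth muscle was lower at day 3. Of 24 tested genes for actin, myosin and the proteins that anchor and regulate them, 9 fell and 0 rose, with a median change of -2.01 against 0.08 over all tested genes, and 21 of the 24 had every day 3 array below every day 0 array (21.4% over all tested genes). Myl9, the regulatory light chain of smooth muscle myosin, read 16.61, 17.51 and 16.74 at day 0 and 14.57, 14.06 and 13.19 at day 3, and it fell by 3.02 ± 0.74 (8.09-fold lower, adjusted p = 0.0316). Cnn1, the actin-binding protein calponin, read 14.73, 15.50 and 15.10 at day 0 and 12.72, 11.78 and 11.08 at day 3, and it fell by 3.25 ± 0.82 (adjusted p = 0.0339). The groups did not overlap in either gene, and day 3 replicate 3 was the lowest array in each. Lmod1, the leiomodin that builds actin filaments, went from 11.60, 11.78 and 11.40 to 9.53, 8.48 and 7.97.

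Synpo2 and Pdlim3, which tie actin to the Z-disc-like dense bodies, had larger falls. Synpo2 read between 13.30 and 13.78 at day 0 and 10.07, 9.61 and 9.01 at day 3, a 15.8-fold lower signal (adjusted p = 0.0134). Pdlim3 read between 12.66 and 12.99 and then 9.57, 8.82 and 8.85 (13.4-fold lower, adjusted p = 0.0139). Ppp1r12a, the targeting subunit of myosin phosphatase and no member of this list, read 16.25, 15.85 and 16.34 at day 0 and 13.09, 12.48 and 12.08 at day 3 (12.1-fold lower, adjusted p = 0.0139). The other members of the list that fell were Lmod1, Ppp1r14a (the phosphatase inhibitor CPI-17), Vcl (vinculin), Actg2 and Csrp1. Myh11, the smooth muscle myosin heavy chain, had 19.23, 19.30 and 19.28 at day 0 and 16.67, 15.71 and 14.79 at day 3. Its change of -3.54 ± 1.07 missed the threshold (adjusted p = 0.0627), although its groups did not overlap. In the main fit 19 of the 24 listed genes had an unadjusted p under 0.05 in limma, all lower. On the 6 arrays alone 19 of the 24 fell, when 2572 of all 22065 tested genes fell. Acta2 could show no change as both groups sat at the ceiling, and day 3 replicate 3 alone was lower, at 19.40. Tagln, or SM22, changed by -0.83 and did not pass (adjusted p = 0.45).

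Transcription factors that switch on this programme fell as well. Myocd (myocardin), the coactivator that marks the contractile smooth muscle cell, read 11.50, 10.68 and 11.49 at day 0 and 7.98, 7.78 and 7.73 at day 3, and it fell by 3.39 ± 0.57 (10.5-fold lower, adjusted p = 0.0086). Srf, the serum response factor that myocardin binds, read 8.43, 8.66 and 8.60 and then 7.48, 6.85 and 7.00, and it fell by 1.45 ± 0.26 (adjusted p = 0.0107). Mef2c and Mef2d, 2 MADS-box factors of muscle, fell by 1.67 ± 0.25 and 1.08 ± 0.21. Tead3, a partner of YAP, was the last of 5 fallers among the 15 tested, with 0 risers and a list median of -0.63. Klf4, the factor that opposes myocardin, changed by -0.21 and did not pass. With the fat covariate or the control-feature covariate 0 of the contractile and 0 of the transcription genes were called. The contractile median was then -0.86 and -1.07, and the transcription median -0.34 and -0.23. Without day 0 replicate 1, 2 or 3, the contractile genes called were 3, 2 or 0, and without day 3 replicate 1, 2 or 3 they were 10, 1 or 0. The transcription genes called ranged from 3 to 6 over the same 6 arrays.

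Serum response factor binds the CArG box, and the promoter of Myl9 is shown because it holds one close to its start. The 250 bases before the start of Myl9 lie at chr2:156775214-156775463 on the plus strand of GRCm38.p6 (RefSeq), printed 5′ to 3′ with the CArG box in capitals.
Myl9: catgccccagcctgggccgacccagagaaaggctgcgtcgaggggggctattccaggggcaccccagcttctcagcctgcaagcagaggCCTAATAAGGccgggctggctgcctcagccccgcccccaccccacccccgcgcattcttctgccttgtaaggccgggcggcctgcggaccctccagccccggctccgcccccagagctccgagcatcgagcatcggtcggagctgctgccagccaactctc
A CArG box was found on either strand within 250 bases of the start in 3 of the 21 contractile genes with a promoter in the table (Myl9, Vcl and Ldb3) and in 1.62% of 27025 genes of the whole table. Of these 3, Myl9 and Vcl fell. Of the 18 contractile genes with no match in this window, 6 fell, and boxes further away or within the gene were not searched.

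Genes of relaxation by nitric oxide and cyclic GMP fell beside those of contraction. Of 15 tested, 8 fell and 0 rose, with a median of -0.71. Gucy1b1, the beta subunit of the guanylate cyclase that senses nitric oxide, read 12.05, 12.05 and 12.17 at day 0 and 8.64, 8.42 and 7.78 at day 3 (14.1-fold lower, adjusted p = 0.00244). Pde5a, the phosphodiesterase that breaks down cyclic GMP, read 11.58, 11.86 and 11.86 and then 9.35, 9.65 and 9.10 (5.28-fold lower, adjusted p = 0.00268). The groups did not overlap in either gene. The endothelial nitric oxide synthase Nos3 changed by 0.15 and did not pass (adjusted p = 0.58). Pde3a, another phosphodiesterase of smooth muscle, fell by 2.15 ± 0.46. Prkg1, the kinase that cyclic GMP activates, and its target Mrvi1 fell by 1.46 and 1.66, and the natriuretic peptide receptors Npr1 and Npr2 by 1.51 and 1.24. Ddah2, which clears an inhibitor of nitric oxide synthase, was the eighth at -0.37. Of the 8, 2 stayed called with the control-feature covariate and 1 with the fat covariate. Without day 0 replicate 3 or day 3 replicate 3, 3 were called.

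Channels and pumps that set the tone of the wall gave 10 fallers and 0 risers among 20 tested, with a median of -0.68. Kcnmb1, the beta subunit that tunes the large-conductance potassium channel of smooth muscle, read 12.00, 12.00 and 11.39 at day 0 and 9.36, 9.31 and 8.52 at day 3 (6.66-fold lower, adjusted p = 0.0104). Its pore subunit Kcnma1 read 9.46, 9.69 and 9.80 and then 7.84, 7.73 and 7.26 (4.12-fold lower, adjusted p = 0.0128). Both subunits were therefore below day 0 on every day 3 array. The chloride channel Ano1 fell by 2.40 ± 0.57, the potassium channel regulator Abcc9 by 1.68 ± 0.26, the calcium pump of the sarcoplasmic reticulum Atp2a2 by 1.68 and the pore of the L-type calcium channel Cacna1c by 1.33. The other fallers were Cacna2d1, Cacnb2, Slc8a1 and Kcnq5. The control-feature covariate left 3 called and the fat covariate 0, and without day 3 replicate 3, 4.

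Receptors of constrictors and the proteins that limit their signals gave 2 risers and 3 fallers among 21 tested (11.8% of all tested genes were called), with a median of 0.05 that turned to -0.01 after quantile normalization and -0.13 after centring. Agtr1a, the main type 1 angiotensin receptor, read 6.57, 6.76 and 6.52 at day 0 and 6.88, 6.40 and 6.84 at day 3, so the groups overlapped (change 0.09 ± 0.22, adjusted p = 0.798). Ednrb, the endothelin B receptor, read 7.48, 7.39 and 7.27 and then 8.25, 8.73 and 8.84, and it rose by 1.22 ± 0.24 (adjusted p = 0.0154). The regulator Rgs16, which shortens G protein signals, rose by 0.55 as deposited, from signals dimmer than the median negative control on all 6 arrays, and was not called after centring (adjusted p = 0.219). Further regulators of this kind fell, Rgs4 by 2.37 ± 0.58 and the RGS-binding protein Rgs7bp by 2.84 ± 0.36, and so did the serotonin receptor Htr2a, by 1.30 ± 0.20. Among 9 peptides and enzymes of the renin-angiotensin system only Cma1, the mast cell chymase that can form angiotensin II, was called, at 0.57 ± 0.15 (adjusted p = 0.0378). It was not called after centring (0.137), after quantile normalization (0.0508), with the replicate block (0.0637), or without any 1 array of days 0 and 3 other than day 0 replicate 3. Ace, the converting enzyme, read 12.72, 11.95 and 11.72 at day 0 and 11.11, 12.14 and 12.22 at day 3, again overlapping. Agt, the precursor angiotensinogen, was dim throughout, with 5.40, 5.82 and 5.44 and then 6.04, 5.72 and 5.73.

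The largest fall of any named gene was in a heat shock protein. Hspa1a, the stress-induced member of the HSP70 chaperones, read 14.83, 13.32 and 15.01 at day 0 and 7.40, 8.00 and 8.80 at day 3, a 79.8-fold lower signal (log2 change -6.32 ± 0.71, adjusted p = 0.00259). Of 20 cytosolic heat shock genes tested 9 fell and 0 rose, with a median of -0.76. Hsph1, the HSP110 partner of HSP70, read 11.62, 10.82 and 12.47 and then 9.93, 9.98 and 9.72 (adjusted p = 0.0419). The small heat shock proteins Hspb1, Hspb8, Hspb6 and Cryab fell by 1.63, 1.20, 0.94 and 1.13, and the cochaperones Dnajb1, Dnajb4 and Bag3 by 0.88, 0.73 and 0.80. Hspa8, the constitutive HSP70, could not show a change because it stood at the ceiling of 19.93 on all 6 arrays. The control-feature covariate left 1 heat shock gene called (median -0.50) and the fat covariate 0 (median -0.42), and without day 0 replicate 3 or day 3 replicate 3, 3 fell.

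Immediate-early genes, which are transcribed within minutes of a stimulus or of tissue handling, had 5 fallers and 2 risers among 22 tested, with a median of -0.63. Over all tested genes 11.8% were called. Jun, a subunit of the AP-1 factor, read 9.86, 9.72 and 10.46 at day 0 and 7.77, 7.45 and 7.74 at day 3 (5.13-fold lower, adjusted p = 0.00255). Klf6 read 12.61, 12.12 and 12.46 and then 9.85, 9.95 and 10.29 (5.15-fold lower, adjusted p = 0.00867). Atf3, a stress-induced factor, read 8.30, 9.33 and 9.15 and then 6.60, 6.50 and 6.69 (5.04-fold lower, adjusted p = 0.00511). All 3 were lower on every day 3 array, whereas Fos (-0.72), Egr1 (-0.38) and Dusp1 (-0.92) did not pass. Myc and Egr2 rose by 0.56 and 0.63 as deposited, but after centring 0 of the 22 rose.

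Targets of stretch and YAP signalling were mixed, with 3 fallers and 2 risers among 18 (11.8% of all tested genes were called). Ccn1, a secreted matricellular protein, went from 18.10, 18.15 and 18.64 to 13.36, 12.65 and 14.28 (29.2-fold lower, adjusted p = 0.00301). Its relative Ccn2, or CTGF, read 15.27, 15.18 and 15.16 and then 14.69, 13.89 and 14.86, a change of -0.72 ± 0.63 that did not pass (adjusted p = 0.459). Ccn4, another member of the family, rose by 0.84 ± 0.16 from a day 0 signal under the negative control median on all 3 arrays. The groups of Ccn1 and Ccn4 did not overlap. Tgfb2, a ligand of the TGF-beta family, fell by 2.45 ± 0.49, and the kinase Nuak2 rose by 0.67.

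Chaperones of the endoplasmic reticulum were higher at day 3. Of 22 genes of protein folding and the unfolded protein response, 9 rose and 0 fell, with a median of 0.69 (0.38 after quantile normalization and 0.50 after centring). Hspa5, or BiP, the HSP70 of this compartment, read 9.77, 9.93 and 9.98 at day 0 and 11.70, 12.26 and 12.22 at day 3 (4.48-fold higher, adjusted p = 0.023). Pdia6, a disulfide isomerase, read 9.79, 9.84 and 10.14 and then 11.63, 12.37 and 12.40 (4.64-fold higher, adjusted p = 0.0139). Hsp90b1, or GRP94, read 14.19, 14.30 and 14.38 and then 15.75, 16.19 and 16.05 (3.26-fold higher, adjusted p = 0.0051).

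Creld2, a secreted chaperone-like protein of the same response, read 7.83, 8.01 and 7.85 at day 0 and 9.44, 10.30 and 9.86 at day 3 (3.91-fold higher, adjusted p = 0.0113). Every day 3 array of these 4 genes lay above every day 0 array. Dnajb11 and Dnajb9, cochaperones of Hspa5, rose by 1.24 and 0.99, and Hyou1, Pdia3 and Sdf2l1 by 1.06, 0.89 and 0.77. The stress effectors Ddit3 (CHOP, -0.25) and Atf4 (-0.30), and the factor Xbp1 (0.71), did not pass. With the control-feature covariate 11 of the 22 rose, with a median of 1.17, and with the fat covariate 0, with a median of 0.73. Without day 0 replicate 2 or 3, 5 rose, and without day 3 replicate 2 or 3, 4. Hsp90b1 was not called after quantile normalization (adjusted p = 0.149).

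The endoplasmic reticulum stress element (ERSE) is the site through which ATF6 and XBP1 act on such genes, with the letters CCAAT and CCACG and any 9 bases between them. The promoters of the 4 risers named above are shown because each holds it. They are the 250 bases before each start in GRCm38.p6 (RefSeq), at chr2:34771840-34772089 (plus strand), chr12:17266339-17266588 (plus), chr10:86705445-86705694 (minus) and chr15:88819396-88819645 (plus), printed 5′ to 3′ along the gene with each match on either strand in capitals.
Hspa5: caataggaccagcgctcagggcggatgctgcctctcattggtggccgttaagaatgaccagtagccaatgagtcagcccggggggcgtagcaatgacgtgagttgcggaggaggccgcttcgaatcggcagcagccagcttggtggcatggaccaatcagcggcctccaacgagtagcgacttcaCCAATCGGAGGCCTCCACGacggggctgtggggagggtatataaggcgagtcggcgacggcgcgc
Pdia6: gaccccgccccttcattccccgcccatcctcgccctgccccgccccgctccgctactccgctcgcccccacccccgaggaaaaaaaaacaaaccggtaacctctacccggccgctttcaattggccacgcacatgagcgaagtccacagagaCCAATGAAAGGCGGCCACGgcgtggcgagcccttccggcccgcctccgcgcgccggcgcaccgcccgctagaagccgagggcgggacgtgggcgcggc
Hsp90b1: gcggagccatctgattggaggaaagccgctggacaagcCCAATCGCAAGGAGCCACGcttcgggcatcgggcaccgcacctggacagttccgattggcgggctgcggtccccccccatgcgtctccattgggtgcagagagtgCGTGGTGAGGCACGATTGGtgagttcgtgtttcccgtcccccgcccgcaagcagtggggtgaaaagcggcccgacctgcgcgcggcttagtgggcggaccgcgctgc
Creld2: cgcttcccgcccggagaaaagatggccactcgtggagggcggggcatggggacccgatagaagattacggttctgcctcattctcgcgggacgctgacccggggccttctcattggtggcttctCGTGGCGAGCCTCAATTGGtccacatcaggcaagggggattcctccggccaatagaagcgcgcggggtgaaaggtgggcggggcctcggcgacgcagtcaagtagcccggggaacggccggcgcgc
Hsp90b1 holds 2 matches, 1 on each strand, and the other 3 genes hold 1. The element was found in 8 of the 20 genes of the list with a promoter in the table, and in 0.13% of all 27025 genes. Besides these 4, the genes with the element were Calr (0.67), Canx (0.53), Dnajc3 (0.51) and Syvn1 (0.21), whose changes did not pass. Of the 12 genes without a match 4 rose, against 4 of the 8 with one.

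**Figure D3:**
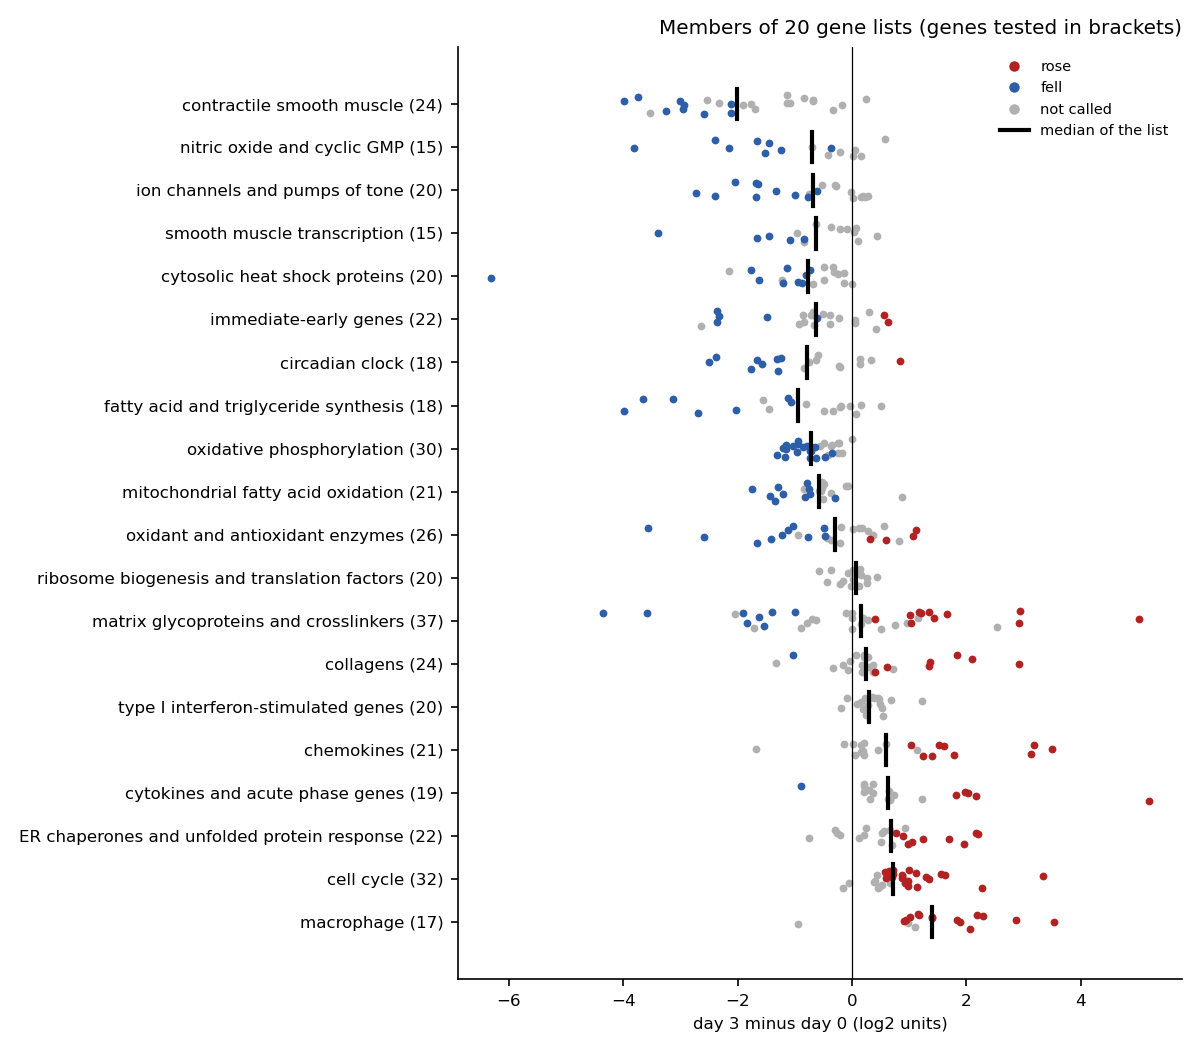
Each point is 1 tested gene of the list named on the left, placed by its log2 change from day 0 to day 3; red rose, blue fell and grey was not called, and the black bar is the list's median. Of the 20 lists plotted, contractile genes have the lowest median (-2.01) and macrophage markers the highest (1.41), while the 20 genes of ribosome biogenesis and translation lie around 0 with 0 called.

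Cell cycle genes rose. Of 32 tested, 22 rose and 0 fell, with a median of 0.72 (0.54 after centring), and 30 of the 32 had every day 3 array above every day 0 array (23.3% over all tested genes). Mki67, the proliferation marker, read 5.62, 5.95 and 5.57 at day 0 and 8.33, 9.65 and 9.19 at day 3 (10.1-fold higher, adjusted p = 0.00571). Top2a, the topoisomerase of dividing cells, read 5.67, 5.91 and 5.67 and then 7.62, 8.39 and 8.08 (4.85-fold higher, adjusted p = 0.00444). The spindle proteins Prc1 and Kif11 rose by 1.63 ± 0.22 and 1.56 ± 0.24 from signals dimmer than the median negative control on each day 0 array. Other risers were the replication genes Mcm3, Mcm4, Mcm5, Rrm2 and Tyms, the cyclins Ccne2, Ccna2 and Ccnb2, and the kinases Cdk1, Bub1 and Aurkb, among others. Pcna (0.67), Cdkn1a (0.89), the inhibitor p21, and Mcm6 (-0.15) did not pass. At day 0, 20 of the 32 were dimmer than the median negative control feature on all 3 arrays, so the size of these changes is approximate. With the control-feature covariate 2 rose and with the fat covariate 0, and without day 0 replicate 3, 13 rose and without day 3 replicate 2 or 3, 11.

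Macrophage markers rose, 14 of 17 with 0 fallers and a median of 1.41, the highest of the lists examined (10 rose after centring and 12 after quantile normalization). Mrc1, the mannose receptor CD206, read 9.44, 8.65 and 9.29 at day 0 and 11.88, 12.71 and 13.43 at day 3 (11.7-fold higher, adjusted p = 0.00632). Lyz2, the lysozyme of myeloid cells, read 12.66, 12.21 and 12.71 and then 14.60, 15.72 and 15.90 (7.35-fold higher, adjusted p = 0.00383). Lyve1, a hyaluronan receptor of tissue-resident macrophages and lymphatics, read 8.76, 8.23 and 8.21 and then 10.21, 10.61 and 11.26 (4.89-fold higher, adjusted p = 0.00327). Every day 3 array lay above every day 0 array in all 3. Cd163, the scavenger receptor for haemoglobin, read 8.25, 7.40 and 7.88 and then 9.94, 10.03 and 10.12 (4.55-fold higher, adjusted p = 0.00172). Ms4a6c, Cd68, C1qb, Adgre1 (F4/80) and Csf1r rose by 2.07, 1.88, 1.83, 1.41 and 1.01, and Folr2, another resident marker, by 1.16. Mertk, a receptor for dying cells, changed by -0.95 and did not pass. With the control-feature covariate 4 of 17 rose, with the fat covariate 1, and without day 0 replicate 2 or 3, 7 and 6, and without day 3 replicate 2 or 3, 7 and 6.

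Markers of other leukocytes were mostly dim at day 0. Beside the counts of these short lists, 11.8% of all tested genes were called. Of 9 monocyte and dendritic cell markers 1 rose, the chemokine receptor Ccr2, which read 6.05, 5.89 and 6.07 at day 0 and 7.23, 7.71 and 7.27 at day 3 (adjusted p = 0.0233). Of 7 neutrophil markers S100a8 and Csf3r rose, by 0.84 ± 0.20 and 0.40 ± 0.08, with both under the negative control median on all 6 arrays, and 0 rose after centring. Of 6 T and NK cell markers and 4 B cell markers 0 were called in limma, 0 had an unadjusted p under 0.05 and 0 were called on the 6 arrays alone. At day 0, 5 of the T and NK cell markers and 3 of the B cell markers were under the median of the negative controls on all 3 arrays. Of 6 mast cell markers Cma1 rose and Kit fell by 0.34. Alas2, the 1 red cell marker tested, rose by 0.72 ± 0.18 as deposited, and was not called after centring (adjusted p = 0.0849). Of 6 lymphatic markers 3 rose: Pdpn by 1.73 ± 0.39, Ccl19 by 1.25 ± 0.34 and Flt4 by 0.30 ± 0.07, of which Ccl19 (adjusted p = 0.0673) and Flt4 (0.608) were not called after centring, while Prox1 (0.17) did not pass.

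Chemokines, the secreted signals that attract these cells, gave 9 risers and 0 fallers among 21 tested, with a median of 0.59. Cxcl13, which attracts B cells, read 6.74, 7.70 and 7.01 at day 0 and 10.77, 10.56 and 10.65 at day 3 (11.4-fold higher, adjusted p = 0.0154). Ccl6 and Ccl9, the myeloid chemokines, were close to each other. Ccl6 read 7.60, 7.37 and 7.18 and then 9.93, 10.50 and 11.29 (9.13-fold higher, adjusted p = 0.00178), and Ccl9 read 7.05, 7.21 and 7.08 and then 9.46, 10.41 and 10.88 (8.80-fold higher, adjusted p = 0.00383). The ligands of CCR2 rose too. Ccl2, or MCP-1, read 6.68, 6.21 and 6.34 and then 7.28, 7.75 and 8.74 (2.87-fold higher, adjusted p = 0.0264), with day 3 replicate 3 highest. Ccl7, Ccl8 and Ccl12 rose by 1.62, 1.40 and 1.79, and Pf4 by 1.04. Ccl8 and Ccl12 were dimmer than the median negative control on each day 0 array, so the size of their changes is approximate. With the control-feature covariate 3 chemokines rose and with the fat covariate 1 (median 0.29), and without day 0 replicate 1 or 3, or day 3 replicate 3, 4 rose. The neutrophil chemokines Cxcl1 (0.16), Cxcl3 (0.02) and Cxcl5 (0.17), and the interferon-induced Cxcl9 (-1.68), did not pass.

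Of 19 cytokines and acute phase genes 5 rose and 1 fell, and 3 rose after centring or quantile normalization. Without day 0 replicate 3, day 3 replicate 2 or day 3 replicate 3, 1 rose. Serpina3n, an acute phase protease inhibitor, had the largest rise of any named gene, from 9.83, 10.24 and 8.65 to 14.49, 14.50 and 15.33 (36.7-fold higher, adjusted p = 0.00907). Il6, the interleukin that drives the acute phase, read 4.59, 5.64 and 5.03 at day 0, under the negative control median on all 3 arrays, and 5.89, 7.81 and 7.65 at day 3 (change 2.03 ± 0.53, adjusted p = 0.0384, and 0.0516 after quantile normalization). Il33, the alarmin of stromal cells, read 7.21, 6.35 and 6.87 and then 8.54, 9.01 and 8.78 (adjusted p = 0.0201). The oncostatin receptor Osmr and haptoglobin (Hp) rose by 1.83 and 2.18, Hp not after quantile normalization (adjusted p = 0.195) or centring (0.0567) and Osmr not after centring (0.0566). Orm1 fell by 0.89, and Il1b (0.67) and Lcn2 (1.22) did not pass. Among 18 adhesion and recruitment receptors 5 rose, with the integrin subunits of myeloid cells Itgam and Itgb2 at 1.90 ± 0.30 and 1.22 ± 0.23 and Ccr1, dimmer than the median negative control on each day 0 array, at 1.23 ± 0.15. The endothelial adhesion genes Vcam1 (0.27), Icam1 (0.61), Sele (0.37) and Selp (0.44) did not pass.

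Complement genes gave 4 risers and 2 fallers among 16 (11.8% of all tested genes were called). The risers were the recognition chains C1qa, C1qb and C1qc, made by macrophages, and properdin (Cfp), at 1.41, 1.83, 0.92 and 0.66, and after centring 1 was called. The fallers were 2 inhibitors of the cascade. Clu (clusterin) read 11.31, 11.55 and 11.46 at day 0 and 8.89, 9.79 and 9.65 at day 3 (3.98-fold lower, adjusted p = 0.00644), and Cd59a fell by 1.09 ± 0.17. Type I interferon-stimulated genes (20 tested) and antigen presentation genes (13 tested) had 0 calls in limma, with medians of 0.30 (0.11 after centring) and 0.03 (-0.15 after centring). At an unadjusted p under 0.05 were 1 interferon gene and 1 antigen presentation gene, both higher. The fit on the 6 arrays alone called 5 of the interferon genes as risers and 1 of the antigen presentation genes as a faller. Of 23 phagosome and lysosome genes 3 rose and 1 fell, again beside 11.8% of all tested genes called. The risers were the scavenger receptor Msr1, haem oxygenase Hmox1 and the adaptor Tyrobp, at 1.18, 1.13 and 0.84 (Tyrobp not after centring, adjusted p = 0.123). The lipase Lpl fell by 1.25 ± 0.35.

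Matrix genes did not move as a block. Of 24 collagens 7 rose and 1 fell (11.8% of all tested genes were called), and the main fibrillar chains were not among them. Col1a1 read 16.06, 14.68 and 15.66 at day 0 and 16.22, 16.20 and 16.12 at day 3 (change 0.72 ± 0.32, adjusted p = 0.173). Col3a1 read 16.40, 15.63 and 16.43 and then 16.11, 16.80 and 16.39, so its groups overlapped (change 0.28, adjusted p = 0.607). The risers came from several classes of collagen. Col12a1 read 7.28, 7.28 and 7.35 and then 9.29, 10.43 and 10.98 (7.63-fold higher, adjusted p = 0.0181). Col6a3, a chain of the beaded filaments around cells, read 10.43, 10.51 and 10.36 and then 12.18, 12.46 and 12.16 (3.56-fold higher, adjusted p = 0.00301), while its partner chains Col6a1 (-0.04) and Col6a2 (-0.34) did not pass. Col8a1, Col14a1, Col5a2, Col4a1 and Col16a1 rose by 2.10, 1.36, 1.34, 0.61 and 0.40, and Col4a5, a chain of basement membranes as Col4a1 is, fell by 1.04. Col8a1 was dimmer than the median negative control on each day 0 array, and Col4a1 and Col16a1 were not called after centring (adjusted p = 0.275 and 0.261). The median of 0.24 became 0.01 after quantile normalization, when 4 rose. Without day 0 replicate 3 or day 3 replicate 3, 1 rose.

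Glycoproteins and crosslinkers split in both directions, with 11 risers and 8 fallers among 37 and a median of 0.16 that became -0.02 after centring. Leaving out day 0 replicate 3 gave 3 risers and 2 fallers, leaving out day 3 replicate 3 gave 4 and 2, and the fat covariate 0 of either. Lox, the enzyme that crosslinks collagen and elastin, read 10.70, 9.97 and 10.39 at day 0 and 13.11, 12.95 and 13.84 at day 3 (7.70-fold higher, adjusted p = 0.00301). Prg4, the lubricant lubricin, read 6.89, 6.69 and 5.98 and then 10.87, 10.84 and 12.90 (32.3-fold higher, adjusted p = 0.0122). Svep1, a large adhesion protein, read 9.39, 8.58 and 8.97 and then 11.61, 12.08 and 12.00 (7.55-fold higher, adjusted p = 0.00192). The fibulins Fbln1 and Fbln2, the hyaluronan synthase Has1, Nid1, Ltbp2 and Lum rose by 1.03, 1.17, 1.22, 1.36, 1.44 and 1.66.

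The fallers of the same list included proteins of the basement membrane around smooth muscle cells. Npnt (nephronectin), an integrin ligand there, read 13.92, 13.95 and 13.95 at day 0 and 9.98, 9.59 and 9.18 at day 3 (20.4-fold lower, adjusted p = 0.0182). The laminin chains Lama4 and Lamb2 and perlecan (Hspg2) fell by 1.90, 1.83 and 1.55. Ecm2 read 12.16, 11.92 and 12.55 and then 9.20, 8.65 and 8.03 (12.0-fold lower, adjusted p = 0.003). Postn (periostin), Tnxb and Thbs2 fell by 1.40, 1.63 and 0.99, and Tnc (-1.71), Fn1 (-0.63), elastin Eln (0.96) and Thbs1 (2.55) did not pass. Nid1, itself a basement membrane protein, was among the risers at 1.36 ± 0.20.

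Among 23 matrix proteases and their inhibitors 5 rose and 1 fell. Without any 1 array of day 0, or without day 3 replicate 2 or 3, 2 rose. With the control-feature covariate 2 rose and with the fat covariate 1. After quantile normalization, or without any 1 array of days 0 and 3, 0 fell. Mmp3, the protease stromelysin, read 9.46, 8.93 and 8.67 at day 0 and 12.20, 12.63 and 12.57 at day 3 (10.9-fold higher, adjusted p = 0.00105). Timp1, an inhibitor of such proteases, read 6.38, 6.45 and 5.69 and then 8.73, 9.23 and 9.79 (8.44-fold higher, adjusted p = 0.00383). The groups did not overlap in either gene. Timp2 (-0.59), Timp3 (0.16) and the gelatinase Mmp2 (0.46) did not pass. Ctss, the cathepsin of antigen-presenting cells, read 7.14, 7.62 and 7.53 and then 9.61, 10.30 and 10.60 (6.68-fold higher, adjusted p = 0.0428). Mmp19 and the urokinase Plau rose by 1.58 and 0.79, and Adamts1 fell by 1.56. In coagulation and fibrinolysis 3 of 17 rose and 0 fell (11.8% of all tested genes were called). The risers were Plau, S100a10 and F13a1, of which F13a1 alone was called after centring or quantile normalization. F13a1, the factor XIII subunit of resident macrophages, went from 9.44, 8.50 and 8.71 to 10.53, 10.91 and 11.37 (4.15-fold higher, adjusted p = 0.00648).

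Genes of mitochondrial energy supply were lower, by small amounts. Of 30 oxidative phosphorylation genes 20 fell and 0 rose (7.14% of all tested genes fell), with a median of -0.71. Of the 30, 27 had every day 3 array below every day 0 array (21.4% over all tested genes). Ndufa4 read 11.60, 11.47 and 11.33 at day 0 and 10.48, 10.26 and 9.74 at day 3 (2.48-fold lower, adjusted p = 0.0337). Atp5a1, the alpha subunit of ATP synthase, read 11.68, 12.08 and 11.49 and then 10.73, 10.58 and 10.42 (2.25-fold lower, adjusted p = 0.0214). The fallers covered complexes I (Ndufa9, Ndufb5), II (Sdha, Sdhb, Sdhc, Sdhd), III (Uqcrc1, Uqcrc2, Uqcrfs1, Cyc1), IV (Ndufa4, Cox4i1, Cox5a, Cox5b, Cox6a1) and the synthase (Atp5a1, Atp5b, Atp5o). Cox7a1 and Cox8b, forms found in muscle and brown fat, fell by 1.15 and 1.20. Both are also brown adipocyte markers that enter the fat covariate. After quantile normalization 11 fell. With the fat or the control-feature covariate 0 fell, and the median was -0.41 and -0.40. Without day 0 replicate 1, 2 or 3, 6, 4 or 9 fell, and without day 3 replicate 2 or 3, 3.

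Mitochondrial oxidation of fatty acids gave 10 fallers and 0 risers among 21 and a median of -0.58. Hadh, an enzyme of the chain, read 9.81, 10.15 and 9.70 at day 0 and 8.65, 8.09 and 7.68 at day 3 (3.36-fold lower, adjusted p = 0.0102). Acaa2, Acadm, Acadl and Hadhb fell by 1.43, 1.35, 1.29 and 1.20, and the carnitine transferases Cpt1a (-0.07) and Cpt1b (-0.51) did not pass. After quantile normalization 1 of the 21 fell, as did 1 without any 1 array of day 0. Synthesis of fatty acids and triglyceride gave 7 fallers and 0 risers among 18, with a median of -0.94 (1 faller without day 3 replicate 3). Fasn, the fatty acid synthase, read 14.71, 15.83 and 12.99 and then 10.33, 10.99 and 10.22 (15.9-fold lower, adjusted p = 0.00867). Dgat2, which makes triglyceride, read 13.57, 14.40 and 13.12 at day 0 and at most 10.69 at day 3 (12.7-fold lower, adjusted p = 0.014).

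Malic enzyme (Me1), which supplies NADPH for this synthesis, read 12.77, 14.10 and 10.85 at day 0 and 9.46, 9.64 and 9.21 at day 3, and ATP citrate lyase (Acly) 11.00, 12.28 and 8.77 and then 8.11, 8.05 and 7.80. In both, and in Fasn, day 0 replicate 2 was highest and replicate 3 lowest, and the day 0 spread was larger than that of day 3. Acaca, Elovl6 and Agpat2 fell by 2.03, 1.13 and 1.07, and Scd1 (-1.44) and Thrsp (-1.56) did not pass. Of the 11 white adipocyte markers 0 were called in limma, 3 had an unadjusted p under 0.05, all lower, and 1 fell on the 6 arrays alone. They included Adipoq at -0.66, Plin1 at -1.05 and Retn at -1.46, and Fabp4, which read 18.59 on all 6 arrays and so added no difference to the marker mean. Of 11 brown adipocyte markers 5 fell, Fabp3 (-1.70), Prdm16 (-1.26), Cox8b, Cox7a1 and Otop1 (-0.53). Dio2, which activates thyroid hormone in brown fat, rose from 7.45, 7.57 and 7.05 to 8.36, 9.83 and 9.89 (adjusted p = 0.0233), and Ucp1 (-1.70) did not pass (adjusted p = 0.39). Cholesterol synthesis had 1 faller among 15, its regulator Srebf2 (-0.97), and glycolysis and hypoxia had 3 among 20, Pfkp (-1.28), Aldoa (-1.21) and Egln3 (-0.26), the last dimmer than the median negative control on all 6 arrays. Over all tested genes 7.14% fell. Srebf2 was not called after quantile normalization (adjusted p = 0.0644) or without any 1 array of days 0 and 3. Without any of these arrays other than day 3 replicate 1, 0 glycolysis genes were called.

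Clock repressors and output factors were lower and the activator Arntl was higher. Of 18 tested 8 fell and 1 rose, with a median of -0.79. Dbp, a clock output factor, read 10.48, 10.66 and 10.61 at day 0 and 8.36, 8.37 and 7.86 at day 3 (5.23-fold lower, adjusted p = 0.0049). Nr1d1, the repressor REV-ERB alpha, read 11.17, 10.86 and 11.40 and then 9.19, 8.09 and 8.66 (5.64-fold lower, adjusted p = 0.00799). Nr1d2, Per3, Per2, Hlf, Bhlhe41 and Tef fell by 1.66, 1.77, 1.57, 1.32, 1.30 and 1.25. Arntl (BMAL1), which Nr1d1 represses, was the 1 riser, at 0.85 ± 0.16 (adjusted p = 0.0123), from signals dimmer than the median negative control on each day 0 array. With the control-feature covariate 2 of the 8 fell and with the fat covariate 0, with list medians of -0.44 and -0.48. The labels give no hour at which tissue was taken, so day of infusion and time of sampling cannot be told apart. Of 18 glucocorticoid-induced genes Fkbp5 and Ddit4 rose, by 1.32 ± 0.36 and 0.91 ± 0.19 (11.8% of all tested genes were called). After centring 0 rose, and Mt2 (3.05) and Tsc22d3 (0.41) did not pass.

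Of 26 oxidant and antioxidant genes 10 fell and 4 rose, with a median of -0.29. Nox4, the NADPH oxidase of smooth muscle and endothelium, read 12.59, 13.59 and 12.99 at day 0 and 10.26, 10.53 and 10.61 at day 3 (6.03-fold lower, adjusted p = 0.0135). Subunits of the phagocyte oxidase rose, with Ncf1 at 1.08, Rac2 at 0.60 and Cyba at 0.32, and its catalytic chain Cybb (0.82) did not pass. Of these, Ncf1 alone was called after centring or quantile normalization. Gstm1, a glutathione transferase, read 13.48, 13.44 and 13.69 and then 10.81, 9.78 and 9.33 (11.8-fold lower, adjusted p = 0.00268). Nqo1, a quinone reductase, read 6.48, 7.00 and 6.85 and then 5.52, 5.31 and 5.26, under the median of the negative controls on all 3 arrays (adjusted p = 0.00102). Both are classical targets of NRF2, whose gene Nfe2l2 fell by 1.04. Gstm2, Gstp1, Sod1, Gpx4, Gstm5 and Gsta4 were the other fallers, and Hmox1, also an NRF2 target, was the other riser.

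Of 25 TGF-beta and BMP genes 5 fell and 2 rose (11.8% of all tested genes were called). Bmpr1a, a BMP receptor, read 12.36, 12.22 and 12.60 at day 0 and 10.10, 10.59 and 10.04 at day 3 (4.43-fold lower, adjusted p = 0.00252). The BMP target Id2 read 12.23, 13.58 and 13.46 and then 11.16, 10.98 and 10.14 (5.03-fold lower, adjusted p = 0.0211), and Id4 (-1.12), Tgfb2 (-2.45) and the receptor Tgfbr1 (-1.09) fell too. The ligand Tgfb1 and the inhibitor Fst rose by 0.29 and 1.05, and 0 rose after centring. Of 13 Notch genes Hey2, Notch2 and Heyl fell, by 1.91, 1.55 and 0.67, and Notch4 rose by 0.37, which centring removed (adjusted p = 0.278). Notch3, the smooth muscle receptor, changed by -0.46 and did not pass.

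Among 16 Wnt modulators Lgr6, a receptor for R-spondins, read 10.50, 10.97 and 10.85 at day 0 and 7.35, 7.26 and 6.85 at day 3 (12.3-fold lower, adjusted p = 0.003). Dkk3 read 10.42, 11.10 and 10.71 and then 8.42, 8.60 and 8.08 (5.18-fold lower, adjusted p = 0.000987). Lgr4 fell by 0.46 and Ccn4 rose. Of 28 growth factors and receptors 4 rose and 0 fell (11.8% of all tested genes were called). Igf1, the insulin-like growth factor, had a wide day 0 spread of 10.18, 8.07 and 8.94 against 11.33, 12.77 and 11.73 at day 3 (7.37-fold higher, adjusted p = 0.0137), and its binding protein Igfbp4 rose by 1.20 ± 0.29. Fgf7 and the VEGF receptor Flt1 rose by 0.80 ± 0.15 and 0.86 ± 0.15. After centring Igf1 was the 1 riser of the list and there was 1 faller, with adjusted p = 0.0607 for Igfbp4, 0.0531 for Fgf7 and 0.0647 for Flt1. Of 13 endothelial markers Flt1 rose and the factor Erg fell by 0.90 ± 0.16 (again beside 11.8% of all tested genes called). Pecam1 (-0.61), Cdh5 (0.25) and Tek (-0.37) did not pass. Of 10 fibroblast markers Lum and Pi16 rose (neither after centring) and Clec3b fell by 1.52 ± 0.23, and the list's median of 0.34 turned to -0.17 after quantile normalization. Of 20 ribosome biogenesis and translation genes 0 were called in limma and 5 had an unadjusted p under 0.05 (3 higher, 2 lower), and the 6 arrays alone called 1 in each direction.

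Several of the largest changes lay outside these groups. Esm1, a proteoglycan of activated endothelium, read 6.10, 6.60 and 5.74 at day 0 and 10.07, 10.09 and 10.88 at day 3 (18.4-fold higher, adjusted p = 0.00102). Emp1, a membrane protein of the PMP22 family, read 9.77, 9.62 and 9.72 and then 11.91, 12.28 and 12.72 (6.05-fold higher, adjusted p = 0.00206). Il4ra, the receptor chain for interleukin 4, read 7.62, 7.39 and 7.32 and then 9.25, 10.13 and 10.04 (5.15-fold higher, adjusted p = 0.0136). The inhibitory myeloid receptor Lilrb4a and the interferon-inducible Ifi207 rose by 2.41 ± 0.52 and 2.37 ± 0.62. All 5 were above day 0 on every day 3 array. Small rises with little spread gave some of the lowest p-values. Gas7, a cytoskeletal protein, read 6.61, 6.64 and 6.50 and then 7.70, 7.74 and 7.73 (2.21-fold higher, adjusted p = 0.000873), and Eps8, an actin-capping protein, 6.23, 6.17 and 6.21 and then 7.07, 7.12 and 7.11 (1.87-fold higher, adjusted p = 0.00178). Sorcs2, a sorting receptor, and the lysozyme gene Lyz1 rose by 1.03 ± 0.11 and 1.93 ± 0.20. Lyz1 is near-identical to Lyz2, and its probes may read both.

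Among the fallers outside the groups, Pi15, a secreted protein of the CRISP family, had the next largest change after Ccn1. It read 14.38, 14.13 and 14.64 at day 0 and 9.67, 9.59 and 9.66 at day 3 (26.8-fold lower, adjusted p = 0.00178). Dsp, the desmosomal protein desmoplakin, read 11.35, 11.62 and 10.83 and then 6.64, 7.06 and 7.02 (20.5-fold lower, adjusted p = 0.00247). Ncam1, a cell adhesion molecule of nerve and muscle, read 11.50, 12.03 and 11.94 and then 8.30, 8.21 and 8.12 (12.3-fold lower, adjusted p = 0.003). It was the 1 call among 10 nerve and Schwann cell markers, of which Mbp (-0.23), Sox10 (-0.01) and S100b (0.29) did not pass. Pcdh7, a protocadherin, Ccdc3, Cpe (carboxypeptidase E), Lmcd1, a LIM protein of muscle, the ubiquitin ligase subunit Fbxo30, the phosphatase Ptprz1 and the sorting receptor Sorl1 fell as well, with log2 changes of -4.20, -3.98, -3.89, -3.89, -3.81, -3.77 and -3.67.

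The lowest p-value of the comparison belonged to Tcap, the titin cap protein of striated muscle, which read 10.44, 10.55 and 10.13 at day 0 and 7.71, 7.23 and 7.22 at day 3 (7.91-fold lower, adjusted p = 0.00043). Of 10 skeletal muscle markers 1 was called, Casq1 (-1.96 ± 0.41), while the myosins Myh1 (0.04), Myh2 (0.02) and Myh4 (0.04) and Ckm (0.05) were under the median of the negative controls on all 3 day 0 arrays and did not pass. Lrrc17, a secreted leucine-rich protein, read 9.79, 9.33 and 10.03 and then 6.78, 7.23 and 7.13 (6.38-fold lower, adjusted p = 0.000492). Tbx18, a transcription factor of mural cells, read 8.88, 9.08 and 9.08 and then 6.79, 6.44 and 6.41 (5.52-fold lower, adjusted p = 0.000492). Unc5c and Sema5a, guidance genes of axons, fell by 2.36 ± 0.19 and 2.40 ± 0.21, and Shisa4, Napepld and Glcci1 by 1.09 ± 0.09, 1.30 ± 0.11 and 0.99 ± 0.08. Tcap, Lrrc17, Tbx18, Unc5c, Sema5a, Napepld, Shisa4 and Glcci1 were called with either covariate, as were Gas7, Nqo1, Dkk3, Pi15, Ncam1, Gucy1b1, Esm1 and Mmp3. Ccl6, Cd163, Dsp, Fbxo30 and Eps8 were also called with either covariate.

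Small RNA genes rose more often than they fell. Of 765 small nuclear RNA genes tested 140 rose (18.3%) and 2 fell, and of 749 small nucleolar RNA genes known by predicted symbols 84 rose (11.2%) and 1 fell. Of 65 small nucleolar RNA genes with family names (Snord, Snora, Scarna) 24 rose (36.9%) and 2 fell. Among 14303 protein-coding genes 611 rose (4.27%) and 1359 fell (9.5%). All these shares are as deposited. They were not counted again after centring, when 472 of the 22065 tested genes rose in place of 1018. Of the 1018 risers, 349 were dimmer than the median negative control feature on all 3 day 0 arrays. So were 7307 of the 22065 tested genes. Of the fallers, 143 were dimmer than this median on all 3 day 3 arrays. At the other end of the scale 183 genes stood at the ceiling on all 6 arrays and could show no change.

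**Figure D4:**
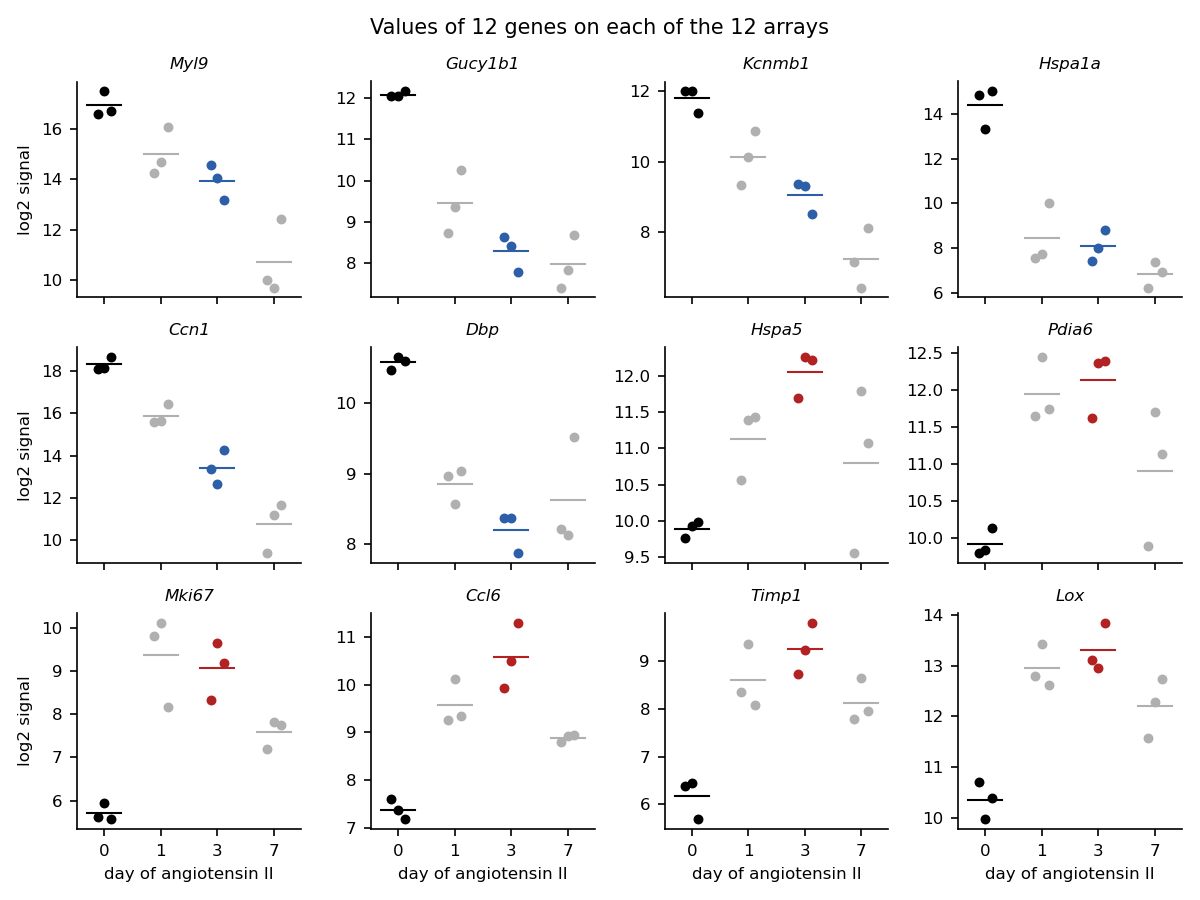
Log2 signals of 12 genes on each of the 12 arrays by day of infusion, with a line at the mean of 3 arrays; day 0 is black, day 3 is blue where the gene fell and red where it rose, and days 1 and 7 are grey. Contractile and tone genes such as Myl9 (-3.02 at day 3) and Kcnmb1 (-2.74) lie lowest at day 7, whereas Hspa5 (2.16), Timp1 (3.08), Lox (2.94) and Ccl6 (3.19) have their highest mean at day 3.

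Day 3 was also set against day 1, to place it between its neighbours. Of 22065 genes 0 were called in limma (smallest adjusted p = 0.403; 1 without day 7 replicate 1), with 1775 of 22065 at an unadjusted p under 0.05, and the median difference was 0.02. The 3 infused days share the day 0 arrays as their control, so their changes are given side by side without a test. Means of the contractile list were 12.92 ± 0.10, 11.83 ± 0.84, 11.00 ± 0.49 and 9.49 ± 1.00 at days 0, 1, 3 and 7 (SD, n = 3). Ccn1 changed by -2.42, -4.87 and -7.55 at days 1, 3 and 7, and Myocd by -2.51, -3.39 and -4.35. The endoplasmic reticulum list had means of 9.75 ± 0.05, 10.25 ± 0.25, 10.48 ± 0.17 and 9.73 ± 0.54, and Creld2 changed by 1.07, 1.97 and 0.47. Macrophage markers averaged 7.50 ± 0.16, 8.90 ± 0.24, 9.02 ± 0.30 and 8.71 ± 0.48. Within that list Lyve1 changed by 2.05, 2.29 and -0.55 at days 1, 3 and 7 and Ms4a6c by 1.15, 2.07 and 2.36. Cell cycle genes averaged 5.75 ± 0.04, 6.62 ± 0.32, 6.65 ± 0.17 and 6.20 ± 0.04, and Srebf2, which fell by 0.97 at day 3, had a change of -0.01 at day 1.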

How the data were processed

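The authors deposited log2 signals for 72688 features of a whole-transcript array, 6732 of them controls. Per the submitters' processing notes they came from Affymetrix Expression Console; the version, background correction and normalization were not given in the sources used here. Per the labels the array is another Affymetrix design, but the feature identifiers are those of transcript clusters. Of 65956 transcript clusters 31258 carried 1 gene symbol in the platform annotation, 1492 several and 33206 none, with symbols updated through RefSeq identifiers. A gene with several clusters was represented by its brightest one on average (30702 genes). Genes at or above the 40th percentile of all signals (5.25) on at least 3 of 12 arrays were tested (22065). This cut lies below the negative control median of every array (5.91 at the lowest). A limma 3.58.1 model in R 4.3.3 held all 4 groups, so that the 12 arrays share 1 estimate of the spread, and eBayes p-values were adjusted by Benjamini-Hochberg over all genes tested at 0.05. The fat covariate was the mean of the white and brown adipocyte markers of each array.

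Named genes were the 20 largest called rises and falls and the 10 with the smallest p in each direction, without overlap between groups, and up to 4 called members of each list; other list members were named for their role. Predicted-symbol genes and small RNA genes were passed over. The comparison and the gene lists were chosen with earlier results of these data known. The main model did not pair samples by replicate number. On simulated data of the same 22065 genes with 200 changed, the model recovered 51% of changes of 1 log2 unit and 92% of changes of 2, with 9 false calls. The simulated noise was independent between genes and held no difference in array quality between groups. These rates therefore need not hold for the deposited arrays. Promoters are the 250 bases before each start in the RefSeq table (GRCm38.p6), searched on both strands for letters only.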

Additional observations from a re-analysis of the deposited data

How the results depend on the processing

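Under the alternatives run, 0 of the 167 named calls changed direction. Several of these fits could not have changed it. Leaving out 1 array cannot turn the direction of a gene whose groups do not overlap, and the replicate block leaves the change itself as it was. The counts of genes varied. Against 1018 risers and 1575 fallers, the 6 arrays alone gave 1951 and 2572, the fat covariate 21 and 34 and the control-feature covariate 272 and 192. The number of risers was 472 after centring and 548 after quantile normalization. Leaving out 1 array gave 285 to 1437 risers and 417 to 2060 fallers, and 0 to 1 gene between days 3 and 1. The lowest counts came without day 3 replicate 3. The cause of these differences was not tested. With the replicate number as a block, 1150 genes rose and 1644 fell, and 154 of the 167 named calls were kept. In their departures from the group means, samples of the same number at days 0 and 3 correlated at -0.06 to 0.35, and over all pairs of days at -0.51 to 0.66. Samples of different numbers correlated at -0.65 to 0.46. With 3 samples per group these values cannot decide whether the numbers mark a pairing or a batch. Array weights were not run, since their estimate could not be fitted. Signals under the negative control median and at the ceiling bound the change of dim and bright genes.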
